A study of Mus musculus musculus x M. m. domesticus and Mus musculus domesticus and Mus musculus with 12 samples.

Results

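The testis transcriptome of sterile F1 hybrid males was placed gene by gene between those of the species that produced them. For each of 7000 genes, the mean of the sterile hybrid MxD was compared with the mid-species value, which is the mean of the DxD and MxM group means on the log2 scale. The compared means came from 9 of the 12 males of the series, 3 from each of these genotypes, and no gene was left out. The spread of each gene was taken from all 12 males. Genes with MxD between the species were sorted as additive. Genes off the mid-species value but not told apart from the nearer species were dominant, and those above or below both were outside.

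RNA came from whole testes, 1 male per Affymetrix array, and all males were 60 days old. The maternal strain is written before the paternal strain throughout. The DxD males were F1 males of LEWES/EiJ and WSB/EiJ, strains that represent Mus domesticus, and the MxM males were F1 males of PWK/PhJ and CZECHII/EiJ, strains that represent Mus musculus. Both crosses are fertile. MxD males came from a PWK/PhJ mother and a LEWES/EiJ father and are sterile, and the males of the reciprocal cross DxM (LEWES/EiJ mother, PWK/PhJ father) are fertile. No agent was given, and the strains are wild-derived inbred strains. DxD and MxM males were not the parents of the hybrids, since WSB/EiJ and CZECHII/EiJ contributed to the species males alone, so the mid-species value is the midpoint of these crosses and not of the parental strains. On the autosomes both hybrids carry a LEWES/EiJ and a PWK/PhJ copy of every gene. On the sex chromosomes they do not. A Y-linked gene comes from the father alone, so the mid-species value is only a reference point for it. MxD has the PWK/PhJ X chromosome, which it shares with MxM, and DxM has the LEWES/EiJ X chromosome, which it shares with DxD, so for X-linked genes MxM is the matched comparison and the mid-species value is only a reference point.

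Where alleles act independently and contribute equally, a hybrid lies at the midpoint of its parents, and this is called additive inheritance. A hybrid at the level of one parent shows dominance, and a hybrid beyond both parents is often called misexpressed. In testis such measurements combine changes inside cells with changes in cell numbers, because spermatogonia divide by mitosis, spermatocytes pass through meiosis and haploid spermatids then mature, and each stage has its own set of transcripts. In whole testis RNA, fewer cells of a type and less RNA per cell cannot be told apart. The study reports a large drop in postmeiotic cells in MxD testes. Since the amount of RNA was fixed, it predicts that mitotic genes appear higher and postmeiotic genes lower. The part of cell numbers in the values below was not tested.

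The deposited values are log2 expression levels of genes that were detected in all 12 males. Their sorted values are the same on every array, with a median of 8.14. An array has no read depth, so precision is set by how many males were measured. The spread between males of a genotype differed, and its variance, averaged over genes, was 0.0879 in MxM but 0.0147 in DxD, 0.0278 in MxD and 0.0203 in DxM. At 131 genes MxM replicate 3 was lower than all other males by 1 log2 unit or more. The males with replicate number 1 deviated together from their genotype means, with correlations across genes of 0.568 to 0.756. Tests used limma with a spread shared by the 4 genotypes, so the standard error is the same for MxD and DxM, and a gene was called at a Benjamini-Hochberg adjusted p under 0.05 over all 7000 genes. Nothing in the labels says whether males of a genotype were littermates, and p-values measure the spread between these males.

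MxD differed from the mid-species value at 1977 genes, which is 28.2% of those tested. It was higher at 920 genes (13.1%) and lower at 1057 genes (15.1%). The median absolute difference was 0.17 over all genes and 0.37 over the called genes, and 482 called genes lay at least 0.5 from the mid-species value. The genes just inside the threshold had differences of -0.28 and -0.28 with adjusted p = 0.04992 and 0.04998, and those just outside had 0.26 and 0.30 with adjusted p = 0.05004 and 0.05005. Measured against the same DxD and MxM males, the fertile hybrid DxM differed from the mid-species value at 325 genes (4.64%), 110 higher (1.57%) and 215 lower (3.07%). The difference between the hybrids, in which the mid-species value cancels, was called at 455 genes (6.50%), of which 210 were higher in MxD (3.00%) and 245 lower (3.50%). Without MxD replicate 3 there were 1103 genes off the mid-species value and 172 between the hybrids, the lowest counts with any 1 male left out.

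Sorting rested on 3 further contrasts. DxD and MxM differed at 2230 genes (31.9%), MxD and DxD at 2170 genes (31.0%), and MxD and MxM at 2122 genes (30.3%). A gene was placed outside both species where MxD differed from each of them in the same direction. Of the other genes that differed between the species, it was additive where MxD lay between the species means and its difference from the mid-species value was not called. It was dominant where that difference was called and the difference from the nearer species was not. A difference that is not called is not evidence of equality, so the additive class also holds genes with a shift too small to call. The dominant classes likewise hold genes at which MxD lay beyond the nearer species mean. Sex-linked genes were not set apart in the class counts, since a chromosome was known for only 2005 autosomal and 32 X-linked genes. For a sex-linked gene the class gives a position and not inheritance between alleles.

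Among genes that differed between the species, the additive class was the largest. MxD had 1315 of them (18.8% of all genes, and 59.0% of the 2230 genes that differed between the species). DxM had 1802, or 80.8% of the same 2230 genes. Among genes above both species MxD had 366 (5.23%) and DxM had 22, and among genes below both MxD had 428 (6.11%) and DxM had 88. MxD was dominant to domesticus at 273 genes (3.90%) and dominant to musculus at 297 genes (4.24%), against 80 and 64 in DxM. A further 38 genes of MxD (0.543%) were partly dominant, which means off the mid-species value and different from both species but between them. The remaining genes that differed between the species, 155 in MxD, fitted no class. Where the species did not differ, 575 genes of MxD were off the mid-species value without passing both comparisons needed for the outside classes, and 3553 genes had no call.

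**Figure D1:**
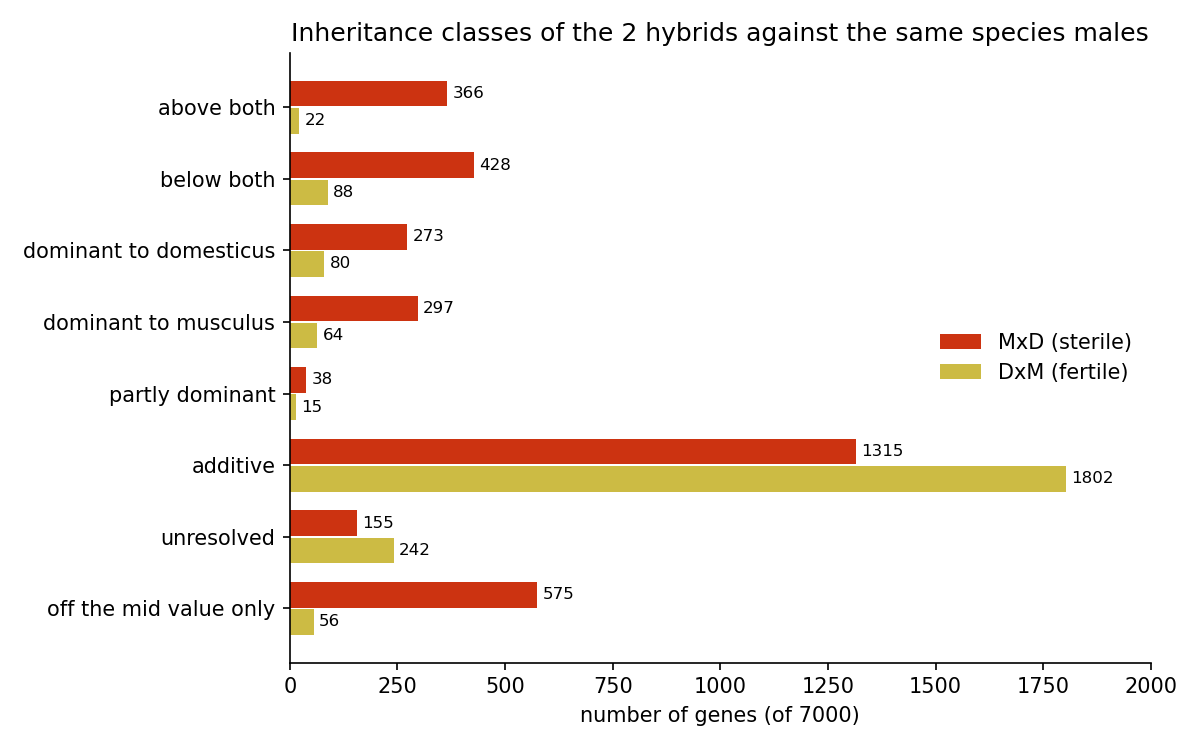
Number of genes, of 7000, in each inheritance class for the sterile hybrid MxD (red) and the fertile hybrid DxM (yellow), both classed against the same DxD and MxM males; genes with no call are not drawn. MxD has 366 genes above and 428 below both species where DxM has 22 and 88, and 1315 additive genes where DxM has 1802.

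The outside classes of MxD held 794 genes in all. For most of them the species themselves were not told apart, and DxD and MxM differed at 53 genes above both and at 99 below both. The median distance of MxD from the nearer species mean was 0.39 in each direction, and it reached 1.97 above and 1.24 below. The median difference from the mid-species value was 0.46 above both, where the same genes had a median of 0.14 in DxM, and -0.49 below both, where DxM had -0.21. The distance of the hybrids from the mid-species value differed at 268 of the 794 genes, or 33.8%, against 6.50% of all genes. The 794 genes were selected on their MxD values, so the smaller DxM medians and this share are partly set by that choice. All 3 MxD males lay above all 6 DxD and MxM males at 574 genes (8.20%) and below them at 706 genes (10.1%), and 345 and 414 of these were in the classes above both and below both.

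Among the 2230 genes that differed between the species, 983 were higher in DxD (44.1%) and 1247 in MxM. The directions in the dominant classes stand beside these counts. Of the 273 genes dominant to domesticus, DxD was the lower species at 182 and the higher species at 91. Of the 297 genes dominant to musculus, MxM was the lower species at 130 and the higher species at 167. The class does not mean an equal level, since MxD lay a median of 0.09 and 0.10 beyond the nearer species mean. All 3 MxD males were above all 6 species males at 17 and below them at 53 of the 273 genes. For the 297 genes these counts were 19 and 17. The genes with the largest species differences were mostly kept between the species. Of the 33 genes with a species difference of at least 2 log2 units, MxD was additive at 13, partly dominant at 14, dominant at 6 and outside at 0, and DxM had 15, 11, 7 and 0.

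The dominance ratio places the hybrid without a call on it. It is the difference of the hybrid from the mid-species value, divided by the difference of DxD from that same value. Thus 1 is the DxD level, 0 the mid-species value and -1 the MxM level. Over the 2230 genes that differed between the species its median was -0.01 in MxD, with quartiles of -0.70 and 0.62, and 0.10 in DxM, with quartiles of -0.36 and 0.53. The ratio was within 0.5 of the midpoint at 40.0% of genes in MxD and 53.1% in DxM, and beyond 1.5 in either direction at 18.9% in MxD and 6.55% in DxM. Classed by the ratio alone, 891 genes of MxD were additive, 461 and 457 dominant to domesticus and to musculus, and 174 and 247 above and below both, so the sizes of the classes depended on how they were drawn. The midpoint of the distribution was therefore near 0 in both hybrids, and its width was larger in MxD.

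**Figure D2:**
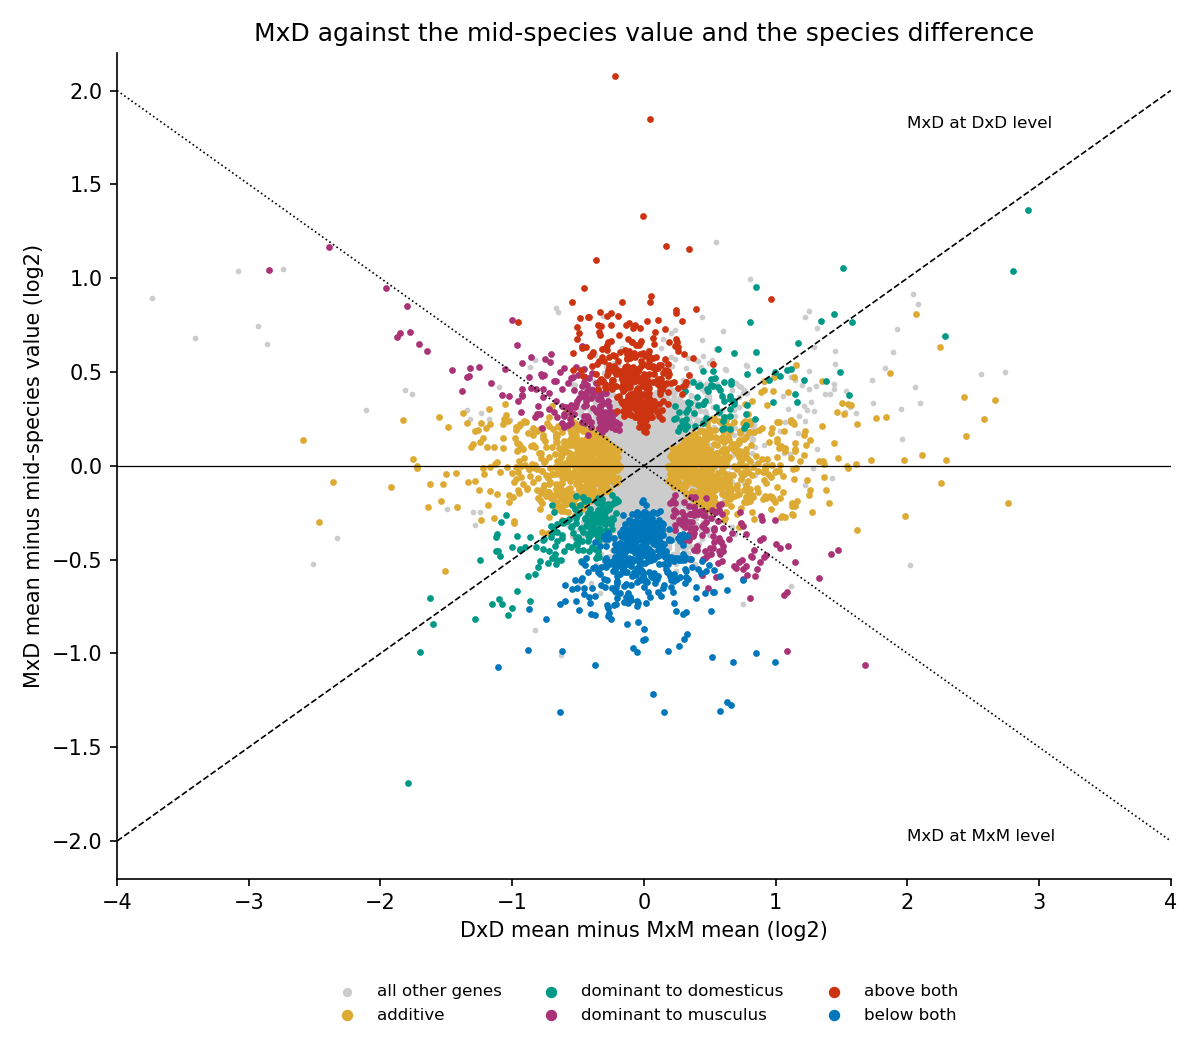
MxD mean minus the mid-species value (vertical, log2) against the DxD mean minus the MxM mean (horizontal, log2) for each gene, coloured by class; 3 genes lie beyond the axes. On the dashed line MxD equals DxD and on the dotted line it equals MxM, with additive genes around 0, the 570 dominant genes along the lines, and the 366 and 428 genes outside both species at the top and bottom, mostly at small species differences.

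A position on the species axis was also computed for each male, as the projection of its values on the difference between the species over the same 2230 genes, with DxD at 1 and MxM at -1. The MxD males were at 0.059, 0.00059 and 0.027, and the DxM males at 0.10, 0.046 and 0.093. All 6 hybrid males were thus within about 0.10 of the midpoint, and the sterile and fertile males overlapped. Without MxM replicate 1 the means moved to 0.15 in MxD and 0.24 in DxM. By cell type the MxD mean was 0.23 ± 0.044 (SD, n = 3) for meiotic genes, 0.12 ± 0.035 for mitotic genes, -0.0072 ± 0.17 for somatic genes and -0.089 ± 0.068 for postmeiotic genes, and DxM had 0.25, 0.15, 0.0088 and -0.056. The order of the cell types was the same in both hybrids, and in each cell type the difference between them was less than the SD of the MxD males.

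Cell types came from the gene table of the study, in which each gene was given the testis cell type where published data show its strongest induction. That table was used for 1997 genes of chromosomes 1 to 4 and part of 5, of which 1102 have a cell type, so only counts are given. Mitotic genes were high in MxD. Of 367 genes, 137 were called above the mid-species value, against 13.1% of all genes, and 6 were called below it, against 15.1%. Called or not, 86.6% of the mitotic genes lay above it, against 49.7% of all genes. The median difference was 0.23. Median deviations in the 3 MxD males were 0.20, 0.18 and 0.30, and in the DxM males 0.045, 0.096 and 0.059. Every MxD male was above every DxM male. In DxM, 8 mitotic genes (2.18%) were called, against 4.64% of all genes. By class, 65 mitotic genes of MxD (17.7%) lay above both species and 2 below both, against 5.23% and 6.11% of all genes.

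Postmeiotic genes were low in MxD. Of 269 genes, 116 were called below the mid-species value, against 15.1% of all genes, and 5 were called above it, against 13.1%. By class, 50 (18.6%) were below both species and 2 above both, against 6.11% and 5.23% of all genes. The MxD males had median deviations of -0.15, -0.23 and -0.29, and the DxM males of -0.030, -0.0028 and 0.0048. The groups did not overlap, and the median over genes was -0.22 in MxD. In DxM, 25 postmeiotic genes (9.29%) were called, against 4.64% of all genes, and 20 of them were lower. Of the 81 postmeiotic genes that differed between the species, 30 were additive in MxD.

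Meiotic genes had a median difference of -0.07. Of 324 genes, 57 were called below the mid-species value in MxD and 10 were called above it, against 15.1% and 13.1% of all genes. The 19 meiotic genes below both species (5.86%) were a share near the 6.11% of all genes. Of the 108 meiotic genes that differed between the species, 70.4% were additive, against 59.0% over all genes. Somatic genes, which stand for Sertoli cells, were called higher at 30 of 142 and lower at 15, beside the same 13.1% and 15.1% of all genes. Their median was 0.12, with MxD male medians of 0.090, 0.11 and 0.13. MxM replicate 3 was also at 0.13, so the MxD males overlapped with the species males, of which the others were at -0.088 to 0.0050. In DxM, 14 meiotic (4.32%) and 7 somatic genes (4.93%) were called, near the 4.64% of all genes. The directions of the medians in these 4 cell types held when arrays were centred on autosomal genes, where they were 0.20 for mitotic, 0.09 for somatic, -0.10 for meiotic and -0.25 for postmeiotic genes. Without MxD replicate 3 the counts fell to 82 mitotic genes higher, 28 meiotic genes lower and 72 postmeiotic genes lower and 18 somatic genes higher, with 32 mitotic genes above both species and 33 postmeiotic genes below both. Without DxD replicate 2, 36 meiotic genes were called lower.

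**Figure D3:**
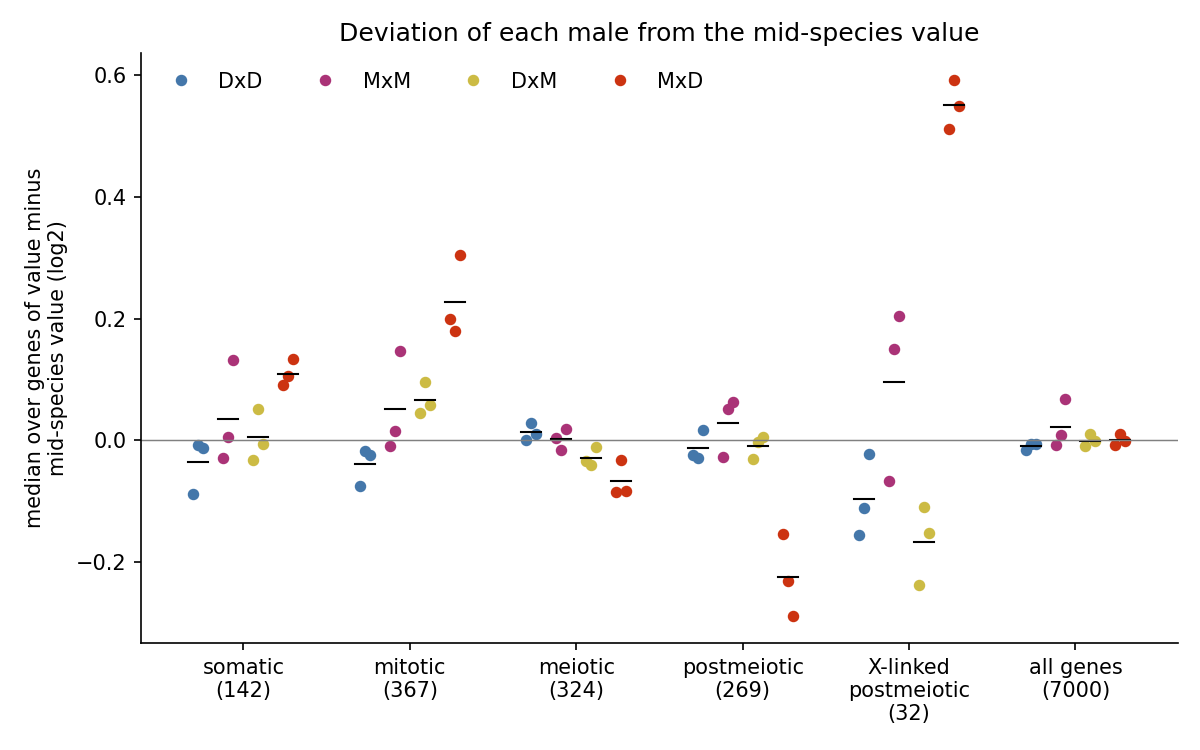
Median over genes of the log2 value minus the mid-species value for each male, by cell type, with the number of genes in brackets; dots are males, black lines are means of 3 males, and the mid-species value is at 0. MxD males (red) are at 0.18 to 0.30 for mitotic genes and -0.29 to -0.15 for postmeiotic genes of the gene table, at 0.51 to 0.59 for the 32 X-linked postmeiotic genes, and near 0 over all genes.

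Symbols were available for 45 genes. The study chose them on these samples as genes whose change in MxD runs against a change in cell numbers, that is, postmeiotic genes that are high and mitotic genes that are low. They are therefore not independent evidence of their direction, and nothing is read from their counts. All 45 were called against the mid-species value, where 28.2% of all genes were, and 39 differed between the hybrids, where 6.50% of all genes did. The study had also required a difference between the reciprocal hybrids on these arrays. The calls between the hybrids at these genes are therefore not independent evidence either. Their starts below are positions in NCBI build 37.

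The group holds 32 X-linked postmeiotic genes. All were above the mid-species value in MxD, by 0.29 to 0.77 with a mean of 0.54. The median deviation of the 32 genes was 0.51, 0.59 and 0.55 in the MxD males and -0.24, -0.11 and -0.15 in the DxM males. Against MxM, which has the same X chromosome, MxD was higher at all 32 genes and called at 25, with a mean difference of 0.45. By class, 25 were above both species, 4 were dominant to musculus and 3 were off the mid-species value only. The difference between the hybrids, on which the study had chosen these genes, was called at 31 of them, against 6.50% of all genes. In DxM 5 of the 32 were called below the mid-species value and 0 above it.

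**Figure D4:**
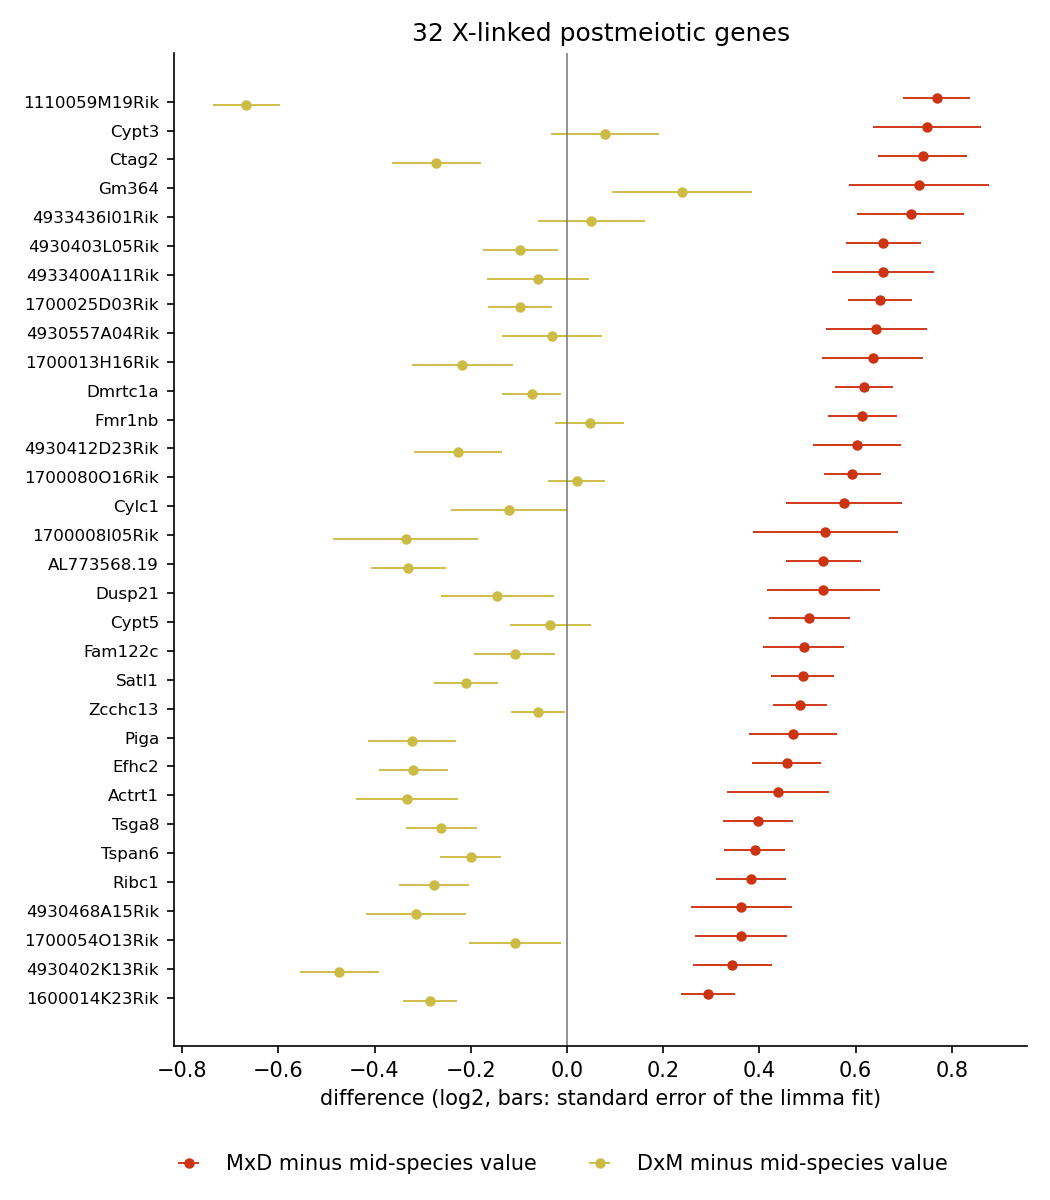
MxD (red) and DxM (yellow) minus the mid-species value (log2) for the 32 X-linked postmeiotic genes, with bars for the standard error of the limma fit. All 32 red points lie between 0.29 and 0.77, and the yellow points lie between -0.67 and 0.24, with 27 of 32 below 0.

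Genes of sperm structure were among them. Cypt3 and Cypt5 belong to a family of cysteine-rich proteins of the perinuclear theca, the shell around the sperm nucleus. Cypt3 (chromosome X, start 149993136) measured 11.54, 11.88 and 11.78 in the MxD males, 10.75, 10.86 and 10.97 in DxD, and 10.90, 11.17 and 11.27 in MxM. All MxD males were above all males of both species, by 0.75 over the mid-species value (standard error 0.11, limma adjusted p = 0.00079). Cypt5 was 0.50 above it (standard error 0.08, limma adjusted p = 0.00156). Cylc1, a basic protein of the sperm head cytoskeleton, measured 8.90, 8.33 and 8.62 in MxD, 8.21, 7.92 and 8.09 in DxD, and 8.19, 7.96 and 7.88 in MxM. Its MxD males were the most spread of these genes and still did not overlap with the species. Tsga8, a testis-specific gene, was at 12.42 ± 0.05 (SD, n = 3) in MxD against a mid-species value of 12.02.

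For several genes of the class above both, the species also differed. Ctag2, a cancer and testis antigen, measured 9.53, 9.26 and 9.40 in DxD, 9.76, 9.89 and 10.07 in MxM, and 10.44, 10.49 and 10.23 in MxD. MxM lay above DxD, and MxD lay above both, with 0.74 over the mid-species value and 0.48 over MxM (limma adjusted p = 0.00591). DxM was at 9.38 ± 0.11 (SD, n = 3), on the level of DxD. Dmrtc1a, a relative of the DMRT transcription factors, had 9.71, 9.76 and 9.79 in MxD against 8.95 to 9.03 in DxD and 9.16 to 9.36 in MxM. Its MxD males were close together, and their mean was 0.62 above the mid-species value (standard error 0.06, limma adjusted p = 8.61e-05). Zcchc13, a zinc finger gene, was 0.48 above the mid-species value in the same pattern.

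1110059M19Rik had the largest difference of the X-linked group. It measured 6.06, 6.09 and 6.01 in DxD, 6.88, 7.02 and 7.13 in MxM, 7.34, 7.37 and 7.19 in MxD, and 5.92, 5.79 and 5.88 in DxM. Each hybrid was thus on the side of the species whose X chromosome it carries, and MxD lay 0.29 above MxM (limma adjusted p = 0.0188). MxD was 0.77 above the mid-species value and DxM 0.67 below it, and the hybrids differed by 1.44 (standard error 0.08, limma adjusted p = 9.37e-06). DxM was also called below the mid-species value at Efhc2, an EF-hand protein of cilia and flagella, by -0.32, at 1600014K23Rik by -0.28, at 4930402K13Rik by -0.47 and at AL773568.19, a transcribed pseudogene, by -0.33. At these genes MxD was above the mid-species value by 0.46, 0.29, 0.34 and 0.53.

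Genes classed as dominant to musculus were those at which the excess over MxM was not called. They were Ribc1, a protein of sperm tail microtubules, Actrt1, an actin-related protein of the perinuclear theca, Piga, an enzyme of GPI anchor synthesis, and 4930468A15Rik. MxD carries no domesticus copy of an X-linked gene, so here the class name gives a position and not dominance between alleles. Ribc1 measured 9.18, 9.05 and 9.03 in MxD, 8.78, 8.92 and 9.09 in MxM, and 8.49, 8.48 and 8.48 in DxD. MxD and MxM overlapped, with a difference of 0.16 (limma adjusted p = 0.169), and both were above DxD. MxD was 0.26 above MxM at Piga (limma adjusted p = 0.0813), 0.26 at Actrt1 and 0.12 at 4930468A15Rik. The class of Actrt1 was kept in 4 of the 12 fits that leave out 1 male, and in the fit blocked by replicate number Actrt1 and Piga were above both species. Dusp21, 1700054O13Rik and 1700008I05Rik, where the species were not told apart, were 0.53, 0.36 and 0.54 above the mid-species value and passed against DxD but not against MxM, though with that block all of them were above both species.

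At other members above both species, the species were not told apart. Fmr1nb was at 8.42 ± 0.11 (SD, n = 3) in MxD, 7.75 ± 0.02 in DxD, 7.86 ± 0.10 in MxM and 7.86 ± 0.11 in DxM. Tspan6, a tetraspanin, was 0.39 above the mid-species value, and Satl1, which resembles polyamine acetyltransferases, 0.49. At Satl1 DxD minus MxM was -0.21, just short of a call (limma adjusted p = 0.0541). Gm364 was the member whose difference between the hybrids was not called. It measured 8.97, 9.22 and 9.37 in MxD and 8.57, 8.84 and 8.68 in DxM, which left both hybrids high, at 0.73 and 0.24 over the mid-species value, with a difference between them of 0.49 (limma adjusted p = 0.111).

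Of the autosomal genes with a symbol, 9 are mitotic, and all 9 were below the mid-species value in MxD, by -0.40 to -0.20 with a mean of -0.31. Without MxD replicate 3, 6 of the 9 were called. In DxM 0 of the 9 were called (limma) and their mean was -0.01. Usp48, a deubiquitinating enzyme (chromosome 4, start 137149667), measured 7.49, 7.52 and 7.56 in MxD, 7.85, 7.92 and 7.85 in DxD, and 7.90, 8.03 and 8.01 in MxM. The MxD males were below all males of both species, by -0.40 from the mid-species value (standard error 0.06, limma adjusted p = 0.000559), which is a ratio of 0.756. DxM was at 7.83 ± 0.06 (SD, n = 3), above MxD by 0.31.

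Brwd1, a bromodomain protein needed for gametogenesis (chromosome 16, start 96214056), measured 6.23, 6.28 and 6.24 in MxD, 6.80, 6.72 and 6.68 in DxD, 6.53, 6.50 and 6.60 in MxM, and 6.54, 6.55 and 6.49 in DxM. DxD was above MxM, DxM was near the MxM mean, and MxD was below all of them, by -0.39 from the mid-species value (standard error 0.05, limma adjusted p = 0.000484). Dnmt3a, a de novo DNA methyltransferase with a role in imprinting of germ cells, was at 5.03 ± 0.07 (SD, n = 3) in MxD, where both species were at 5.34. Its MxD males, at 5.08, 4.96 and 5.06, were below all the others, and its mean was near the lower end of the array values, of which 1% lay below 5.00. The difference of -0.31 from the mid-species value was called (limma adjusted p = 0.00185), and the difference from DxM was -0.21 (limma adjusted p = 0.0655).

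Meg3, an imprinted long noncoding RNA expressed from the maternal allele, measured 5.49, 5.48 and 5.34 in MxD, 5.83, 5.98 and 5.82 in DxD, 5.80, 5.58 and 5.81 in MxM, and 5.97, 5.73 and 5.76 in DxM. The MxD males were lowest, with -0.37 from the mid-species value (standard error 0.08, limma adjusted p = 0.00662). The difference between the hybrids was -0.38 (limma adjusted p = 0.0343). MxD and MxM both have musculus mothers, and a part of the mother's species in this value was not tested. Sirpa, a signal-regulatory receptor, was -0.33 from the mid-species value (limma adjusted p = 0.0124), and the call was lost without MxD replicate 3 (limma adjusted p = 0.0758).

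Mthfd1, an enzyme of folate metabolism, was the mitotic gene dominant to musculus. It measured 6.36, 6.22 and 6.19 in MxD, 6.32, 6.40 and 6.35 in MxM, 6.67, 6.64 and 6.63 in DxD, and 6.53, 6.48 and 6.48 in DxM. DxM was at the mid-species value of 6.50 and was classed as additive, while MxD overlapped with MxM and was -0.24 from the mid-species value (limma adjusted p = 0.00729). At the other mitotic genes the species were not told apart and MxD passed against only 1 of them. Nup155, a nuclear pore protein, was -0.27 from the mid-species value, Ppp1r15b, a regulator of the phosphatase that reverses eIF2 alpha phosphorylation, -0.25, and Baz2b, a bromodomain protein, -0.20. The call of Baz2b (limma adjusted p = 0.0326) was lost in 10 of 26 alternative settings.

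The other 4 autosomal genes were listed as postmeiotic and were all above the mid-species value, by 0.25 to 1.17. Cyp17a1 (chromosome 19, start 46741676), which encodes the androgen synthesis enzyme that defines Leydig cells, measured 11.23, 11.17 and 11.29 in MxD, 9.84, 10.61 and 9.97 in DxD, 9.69, 9.54 and 10.69 in MxM, and 10.61, 10.68 and 10.40 in DxM. The species males varied over more than 1 log2 unit, and the MxD males were close together and above all of them. The difference from the mid-species value was 1.17 (standard error 0.23, limma adjusted p = 0.00396), a ratio of 2.25, and without the replicate 1 males the adjusted p was 0.0553. DxM was between the groups, at 0.51 over the mid-species value (limma adjusted p = 0.273), and the difference between the hybrids of 0.67 was not called (limma adjusted p = 0.175). No other marker of Leydig cells carried a symbol, and the part of Leydig cell number in this value was not tested.

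Spinlw1, a protease inhibitor of the sperm surface, measured 9.46, 9.33 and 9.49 in MxD, 8.80, 9.0 and 8.98 in DxD, 8.82, 8.79 and 9.0 in MxM, and 8.94, 8.97 and 8.98 in DxM. The MxD males stood alone above 9 males with like levels. The difference was 0.53 from the mid-species value (standard error 0.07, limma adjusted p = 0.000427). It was 0.46 from DxM, which was called as well (limma adjusted p = 0.00707). BC048507 was 0.34 above the mid-species value and above both species. Aqp8, a water channel, was 0.25 above it, and it passed against DxD but not against MxM.

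Genes without a symbol were ranked as well, and the leading ones are given by identifier. A chromosome was known only for ENSMUSG00000058135, so whether the others are sex-linked could not be told. ENSMUSG00000069049 was farthest above both species among genes above the lowest 1% of array values. It measured 9.60, 9.75 and 10.07 in MxD, 7.65, 8.06 and 8.22 in DxD, 7.68, 7.99 and 8.14 in MxM, and 7.48, 7.89 and 7.86 in DxM. Replicate 1 was lowest in every genotype, and the MxD males were far from all others, at 1.85 over the mid-species value (standard error 0.16, limma adjusted p = 3.87e-05), a ratio of 3.60. The 3 other genotypes overlapped, and the difference of MxD from DxM was 2.06 (standard error 0.18, limma adjusted p = 0.000296).

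ENSMUSG00000055540 was farthest below both. It measured 5.21, 5.29 and 5.27 in MxD, 5.58, 5.85 and 5.78 in DxM, 6.56, 6.70 and 6.68 in DxD, and 6.32, 6.49 and 6.68 in MxM. Both hybrids were below all species males, by -1.31 in MxD and -0.84 in DxM, and MxD was lower than DxM by -0.48 (limma adjusted p = 0.0165).

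ENSMUSG00000058135, a mitotic gene of chromosome 3, led the genes dominant to domesticus above the mid-species value. It measured 11.43, 11.21 and 11.25 in MxD, 11.37, 11.52 and 11.30 in DxD, 11.24, 11.11 and 10.87 in DxM, and 7.37, 8.94 and 9.12 in MxM. MxD and DxD overlapped about 3 log2 units above MxM, whose replicate 1 was far below the other males. MxD was 1.36 above the mid-species value (standard error 0.30, limma adjusted p = 0.00661). On the linear scale the mid-species value is higher, and MxD was then 0.72 above it (limma adjusted p = 0.123), so the class of this gene depended on the scale.

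ENSMUSG00000035617 led the genes dominant to musculus below the mid-species value. It measured 8.04, 7.60 and 7.52 in MxD, 7.95, 7.56 and 7.77 in DxM, 8.19, 7.74 and 7.89 in MxM, and 9.76, 9.57 and 9.53 in DxD. Both hybrids overlapped with MxM, at -1.06 from the mid-species value in MxD and -1.02 in DxM, and the difference between them was -0.04 (limma adjusted p = 0.926). A difference between them was not detectable, and in the fit blocked by replicate number MxD was called below both species.

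The additive genes with the largest species differences show the class itself. ENSMUSG00000053414 measured 8.46, 8.45 and 8.47 in DxD, 5.45, 5.61 and 6.03 in MxM, 6.85, 6.98 and 6.80 in MxD, and 7.05, 7.32 and 7.16 in DxM. All hybrid males lay between the species and near the mid-species value of 7.08, with MxD at -0.20 from it (standard error 0.11, limma adjusted p = 0.209). On the linear scale MxD was -0.78 from the midpoint and called (limma adjusted p = 0.000971), since a midpoint of linear values lies nearer to the higher species. ENSMUSG00000032673, which is higher in MxM, had 5.05, 5.18 and 4.81 in DxD, 7.79, 7.40 and 7.62 in MxM, 6.74, 6.06 and 6.54 in MxD, and 6.26, 5.92 and 6.35 in DxM. The hybrids overlapped between the species, and MxD was 0.14 from the mid-species value (standard error 0.15, limma adjusted p = 0.548). The DxD mean of this gene, 5.01, was near the lower end of the array values, of which 1% lay below 5.00. Its DxD level may thus be only a bound, and the mid-species value and the class rest on it.

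**Figure D5:**
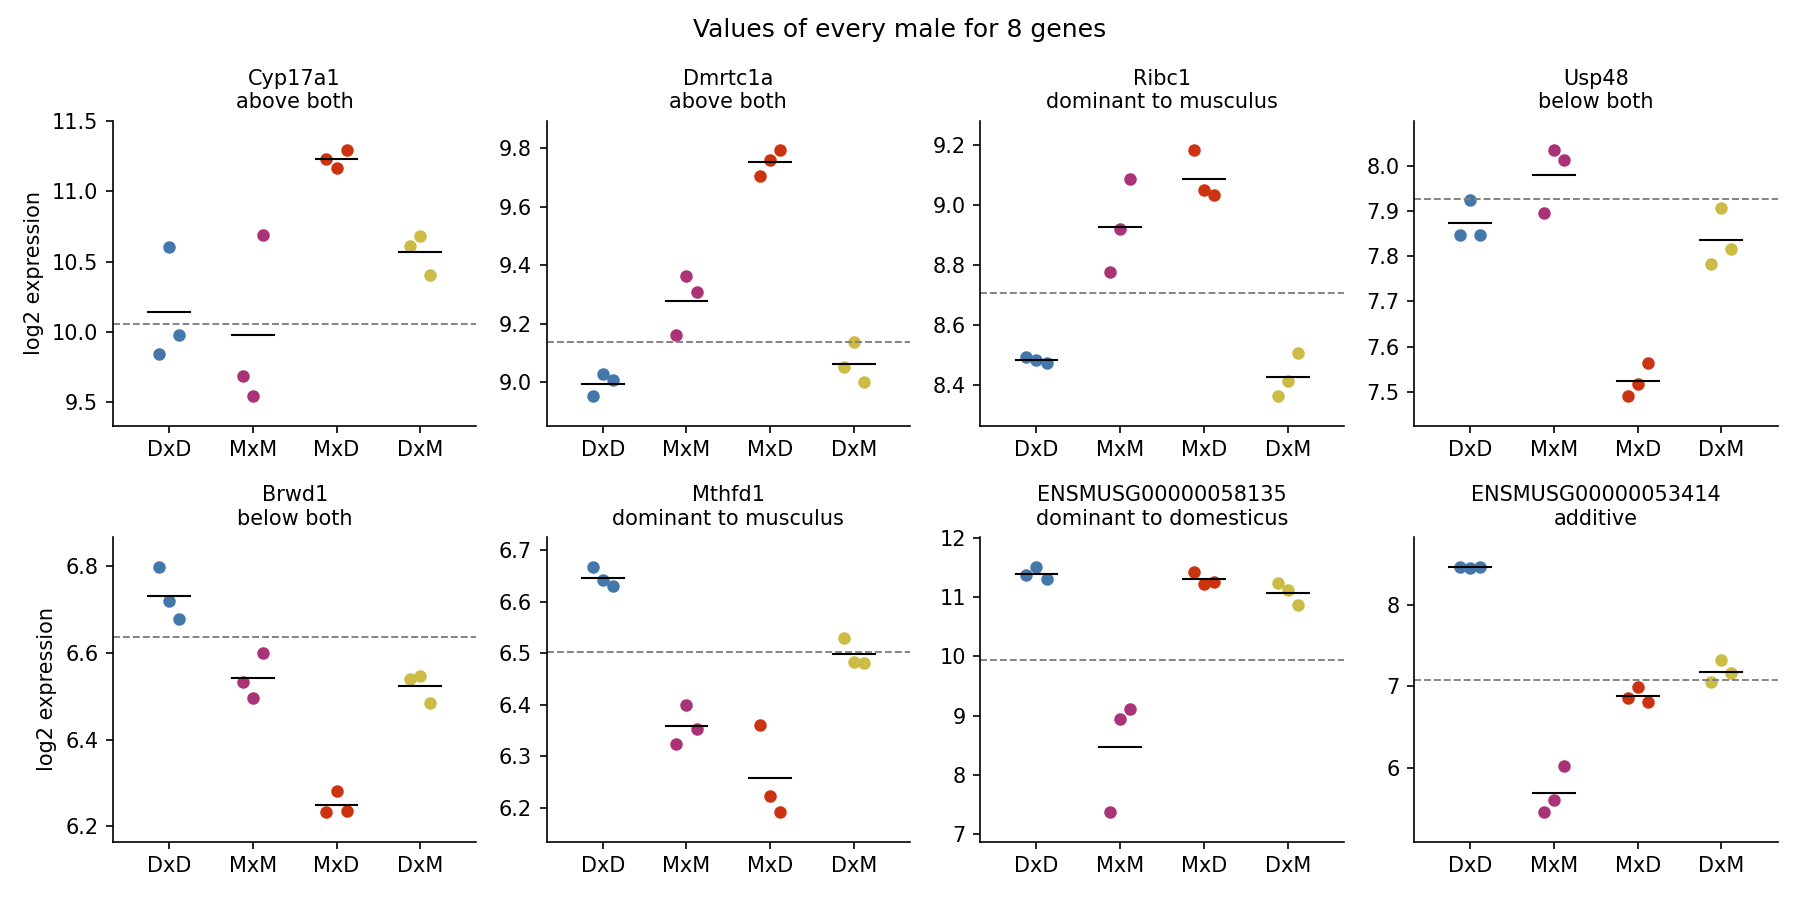
Log2 expression of each male for 8 genes, with the class of MxD under each name; dots are males, black lines are means of 3 males and the dashed line is the mid-species value. At Cyp17a1 and Dmrtc1a the red MxD males lie above all others, at Usp48 and Brwd1 below all others, at Ribc1 and Mthfd1 with MxM, at ENSMUSG00000058135 with DxD, and at ENSMUSG00000053414 near the dashed line. The vertical axes differ between panels and do not start at 0.

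The array's probes follow the genome of laboratory mice, whose ancestry is mostly domesticus. A sequence mismatch in MxM lowers both its value and the mid-species value, and its part in these classes was not tested.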

How the data were processed

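Expression was analysed in whole testis of 3 males of each of 4 genotypes, of which DxD, MxM and MxD gave the comparison with the mid-species value and DxM the fertile hybrid beside it. According to their methods, the authors combined the probes of an Ensembl gene into 1 level by PLIER, with probe groupings from BRAINARRAY (version 11). Genes had to be detected in every male (Wilcoxon test at 0.01), and the arrays were then quantile normalized. The deposited log2 values were used unchanged. All per-sample columns were used.

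Tests were two-sided contrasts of a limma fit (version 3.58.1, R 4.3.3) of the genotype means over 12 arrays, with Benjamini-Hochberg adjustment at 5% over 7000 genes. The study's own test was a gene by gene t-test, kept as an alternative. Classes were derived from these calls in Python 3.11.15, and figures drawn with matplotlib 3.10.9. The procedure was tested on simulated data. The members, classes, lists and rules were chosen with earlier results of these data known.

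Symbols were known for 45 genes and not for 6955. Of 22 gene lists planned by symbol (499 entries), only Dnmt3a, Meg3 and Cyp17a1 could be matched, so the lists and the tissue markers were not used here otherwise. Named genes without a symbol were the first by rank in their class: the largest distance outside both species for males that do not overlap, the largest mid-species difference for dominant genes, and the largest species difference for additive genes, leaving out group means under the lowest 1% of values.

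Alternatives were fits of only 9 arrays, the replicate number as a block, the methods' t-test, array weights, a trend with robust prior, a filter on the dimmest 25% of genes, a linear mid-species value, other centring and normalization, other thresholds, classes from the dominance ratio and each male left out. Replicate 1 as a block, removal of the replicate 1 males and removal of genes far lower in MxM replicate 3 were added after seeing the data.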

Additional observations from a re-analysis of the deposited data

Results flagged for a closer look

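The distance from the mid-species value differed between the hybrids at 455 genes by limma (MxD minus DxM, adjusted p under 0.05). Among the 794 genes outside both species in MxD, which were selected on MxD, it differed at 268. The genes described above for which this difference passed are given here with MxD minus DxM on the log2 scale, and no explanation was tested. Genes with a symbol had been chosen by the study partly on this difference, so their values are description only.

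Among X-linked genes MxD exceeded DxM by 1.44 at 1110059M19Rik and by 1.01 at Ctag2. The difference was 0.87 at 1700008I05Rik, 0.86 at AL773568.19, 0.82 at 4930402K13Rik, 0.79 at Piga, 0.78 at Efhc2 and 0.77 at Actrt1. It was 0.70 at Satl1, 0.70 at Cylc1, 0.69 at Dmrtc1a, 0.68 at Dusp21, 0.68 at 4930468A15Rik, 0.67 at Cypt3, 0.66 at Ribc1 and 0.66 at Tsga8. Lower values were measured at Tspan6 with 0.59, 1600014K23Rik with 0.58, Fmr1nb with 0.57, Zcchc13 with 0.54, Cypt5 with 0.54 and 1700054O13Rik with 0.47.

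Among autosomal genes MxD was higher at Spinlw1 by 0.46. MxD was below DxM by -0.40 at Sirpa, -0.38 at Meg3, -0.31 at Nup155, -0.31 at Usp48, -0.31 at Ppp1r15b, -0.27 at Brwd1 and -0.24 at Mthfd1. Of the genes without a symbol, ENSMUSG00000069049 differed by 2.06 and ENSMUSG00000055540 by -0.48. With 3 males a genotype, no single male could be tested as an outlier.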

How the results depend on the processing

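No called mid-species difference of a named gene changed direction in the alternatives run, and the methods' t-test with unequal variances and adjustment lost 29 of these calls. The pairing of replicate numbers was checked through the correlation, across genes, of the deviations of same-numbered males. The lowest correlation was 0.0744 among DxD, MxM and MxD (replicate 2) and -0.0511 with DxM, and 16 of 18 same-numbered pairs were over 0.1. A male correlated best with its own number in 24 of 36 comparisons with another genotype. Not every pair was over 0.1 and no label ties the numbers to a batch, so the block stayed an alternative. With the replicate block, 2972 genes were off the mid-species value, 648 were above both species, 716 below both, 452 dominant to domesticus and 500 dominant to musculus, and 790 genes were called for DxM and 1201 between the hybrids. Replicate 1 against the others as a block, added after seeing the data, gave 612, 709, 433 and 486 genes in the same classes, and without the replicate 1 males, also added then, 218 lay above both.

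The methods' t-test with unequal variances and Benjamini-Hochberg adjustment called 375 genes off the mid-species value, with 1 above both, 0 below both (384 at an unadjusted p under 0.05), 329 additive, 28 and 37 dominant. It called 19 genes for DxM, 0 between the hybrids (1050 unadjusted), 468 between the species, 654 against DxD and 3 against MxM. With equal variances it gave 65 above both, 109 below both and 826 additive, 9 between the hybrids, 1377 between the species and 420 against MxM. Unadjusted, the t-tests gave 1085 and 1322 genes for DxM, and 1050 and 1295 between the hybrids.

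A limma fit of only the 9 DxD, MxM and MxD arrays called 1654 genes off the mid-species value, with 292 above both and 368 below both. At 1%, limma called 1005 genes off the mid-species value, with 146 above, 207 below, 116 dominant to domesticus and 142 to musculus. Unadjusted these classes held 572, 667, 432 and 462. With a difference of at least 0.5 they held 82, 103, 51 and 56, with 742 additive and 482 off the mid-species value. By the dominance ratio they held 174, 247, 461 and 457. Without the dimmest 25% of genes the position of MxD was 0.067.

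Leaving out 1 male at a time gave 1103 to 2333 genes off the mid-species value, 199 to 487 above both, 279 to 455 below both, 1044 to 1543 additive, 168 to 321 dominant to domesticus and 203 to 327 to musculus. The lowest of these came without MxD replicate 3, except for additive genes (DxD replicate 2). It gave 156 to 447 for DxM, 172 to 667 between the hybrids, 1667 to 2554 between the species, 1536 to 2605 against DxD and 1481 to 2158 against MxM. The positions ranged from 0.018 to 0.15 in MxD and 0.061 to 0.24 in DxM. Without DxM replicate 3, 156 genes remained called for DxM. The males' number, 3 a genotype, and the wide spread of MxM limit the precision.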
